A study of Rattus norvegicus with 4 samples.

Results

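The genes described here are 48 interferon-stimulated antiviral genes, chosen by symbol from the 32883 genes of the deposited count table. The list was drawn up with earlier results of these data known, so it is not independent of them. Each of the 48 symbols matched 1 row. All 48 passed the filter for testing, Zbp1 only through its untreated libraries, as did 12316 genes in all. The cells were HSC-T6, a rat line derived from hepatic stellate cells and immortalised, either treated with ginsenoside RK1 (written GRK1 in the labels), a saponin of processed ginseng, or left untreated. RNA was sequenced from 2 libraries per group, and n = 2 holds for every group value below. Dose, duration and vehicle are not in the labels. Nor do they name separate cultures for replicates 1 and 2, and each p-value therefore reflects only library-to-library spread, possibly technical.

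Interferons are secreted proteins that bind receptors on the cell surface and, through JAK kinases, activate STAT transcription factors. Type I interferon signalling assembles a complex, with STAT2 and IRF9 among its subunits, that binds the interferon-stimulated response element in promoters, whereas interferon gamma acts mainly at gamma-activated sites. The genes induced in this way encode sensors of foreign nucleic acid, enzymes and membrane proteins that block viruses, and factors that raise or brake the response. In the liver, stellate cells can both make and answer interferons, and these genes are often taken as a readout of that signalling.

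Total counts assigned to genes ran from 18008586 to 20430930 per library, the highest being untreated replicate 1. The cells were checked against markers of their labelled type. The collagens Col1a1 and Col3a1, Vim and Timp1 were abundant, whereas the retinol esterification gene Lrat had 0 counts in all 4 libraries and the smooth muscle actin gene Acta2 had 16 and 6 counts in the RK1 libraries and 73 and 56 counts in the untreated ones. The summed level of all 8 stellate and mesenchymal markers was 13786 to 13847 CPM (counts relative to the scaled library total) with RK1 and 20189 to 21237 CPM untreated, and its part in the results below was not tested. Col1a1, Col3a1, Timp1 and Vim made up nearly all of this sum. Of the 8, Col1a1, Col3a1, Timp1 and Acta2 fell, while Vim, Pdgfrb and Des did not pass, Des being at 7.46 and 6.64 CPM with RK1 and 5.86 and 5.06 CPM untreated. The summed level of 8 macrophage markers was 55.8 to 56.8 CPM with RK1 and 44.0 to 46.8 CPM untreated. Nearly all of it was Cd14, which rose with RK1 (log2 fold change 0.31 ± 0.05 SE). Of the 8, 3 were at 0 throughout, namely Ptprc, Adgre1 and Marco. Summed hepatocyte, endothelial and lymphocyte markers were each below 1 CPM in every library. The hepatocyte marker Cyp3a2 and the endothelial marker Pecam1 had no row under those symbols and are not in these sums.

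Interferon-stimulated transcripts were lower in RK1-treated cells. Of the 48 genes, 40 fell and 0 rose at a Benjamini-Hochberg adjusted p under 0.05 in edgeR's quasi-likelihood test. Of all tested genes, 10.5% fell and 11.5% rose. The median log2 fold change, RK1 over untreated, was -0.47, against 0.0 over all tested genes. Falls reached at least 2-fold for 8 members, as for 1.23% of tested genes. Among the 8, Mx1, Ifit3, Oas2, Rsad2 and Gbp5 were not called with robust dispersion estimates, described below. Rsad2, Gbp5, Oas2 and Ifit3 lay within their SE of the 2-fold cutoff. Zbp1, among both the 40 and the 8, passed the filter only through its untreated libraries. Both RK1 libraries lay below both untreated libraries for 43 of the 48, where the same held for 30.9% of tested genes. At an unadjusted p under 0.05, 43 members were lower and 0 higher, beside 17.4% of tested genes that were lower. DESeq2 called 38 lower and 0 higher, beside 6.86% of tested genes lower, and limma-voom called 40 lower and 0 higher, beside 10.4%. With robust dispersion estimates, which leave the fold changes as they are, the number called lower was 20, beside 11.7% of tested genes called lower in that fit. In all 48 genes the libraries of each group differed in the same direction, as described below. The genes thus did not vary independently, and these counts cannot be read as that many separate observations. In bulk RNA, fewer cells expressing a gene and less of its RNA per cell cannot be told apart.

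**Figure D1:**
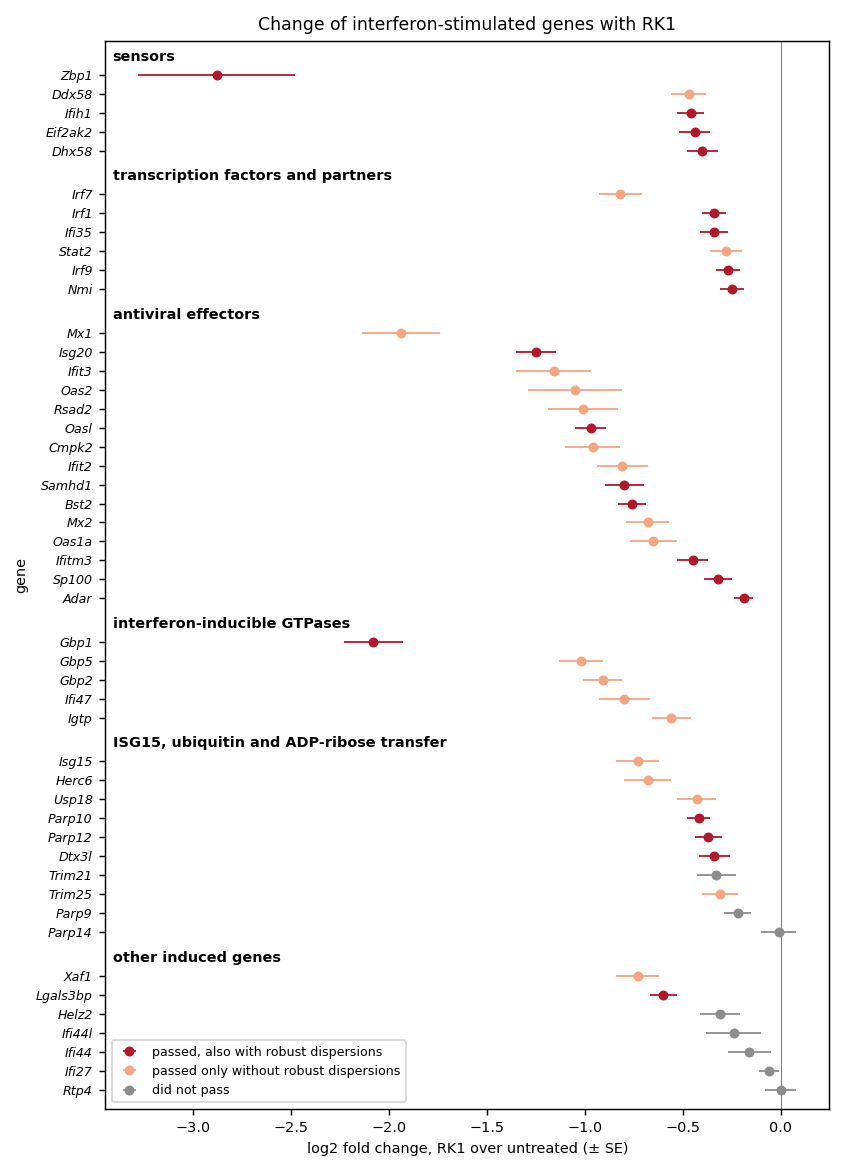
Log2 fold change of each gene (x axis, RK1 over untreated, bars ± SE, 2 libraries per group), ordered within role groups, with colour showing whether the gene passed an adjusted p of 0.05 with and without robust dispersions. All 15 antiviral effectors lie left of 0, while Parp14, Ifi27 and Rtp4 lie at or near it.

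Promoter windows from RefSeq (build GRCr8, 250 bases before to 50 after an annotated start) were matched to 37 of the 48 genes by symbol, and the response element was searched on both strands as TTTC, any 2 bases and TTTC. The following windows are shown because, in 5 of the 6 role groups, they belong to the gene with the smallest adjusted p among those that fell and hold a match. Each is written 5′ to 3′ on the strand of the gene with the matches in capitals.
Ifih1, chr3:67683919-67684218, minus strand: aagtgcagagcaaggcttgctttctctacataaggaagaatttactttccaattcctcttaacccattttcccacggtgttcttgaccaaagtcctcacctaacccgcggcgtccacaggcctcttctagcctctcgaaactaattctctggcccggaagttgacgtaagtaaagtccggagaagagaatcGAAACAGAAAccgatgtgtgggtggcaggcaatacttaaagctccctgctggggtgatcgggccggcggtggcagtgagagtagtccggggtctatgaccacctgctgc
Irf7, chr1:205799974-205800273, minus strand: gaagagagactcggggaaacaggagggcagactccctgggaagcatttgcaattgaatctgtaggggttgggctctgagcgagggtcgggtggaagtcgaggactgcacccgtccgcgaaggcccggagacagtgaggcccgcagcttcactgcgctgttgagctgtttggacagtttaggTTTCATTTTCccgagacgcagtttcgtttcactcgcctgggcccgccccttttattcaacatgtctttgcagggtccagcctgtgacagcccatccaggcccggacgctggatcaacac
Isg20, chr1:142239809-142240108, plus strand: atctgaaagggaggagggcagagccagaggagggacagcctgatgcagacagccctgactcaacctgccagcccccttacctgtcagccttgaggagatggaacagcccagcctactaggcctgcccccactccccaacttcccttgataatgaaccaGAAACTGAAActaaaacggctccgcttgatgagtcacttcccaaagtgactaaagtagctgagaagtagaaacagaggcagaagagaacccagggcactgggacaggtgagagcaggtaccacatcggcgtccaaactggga
Gbp1, chr2:234072187-234072486, plus strand: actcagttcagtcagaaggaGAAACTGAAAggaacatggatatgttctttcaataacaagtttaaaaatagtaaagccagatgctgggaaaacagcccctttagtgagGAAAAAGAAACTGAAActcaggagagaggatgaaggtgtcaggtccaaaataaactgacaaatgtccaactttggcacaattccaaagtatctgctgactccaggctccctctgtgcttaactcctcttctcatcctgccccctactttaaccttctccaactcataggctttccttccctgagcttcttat
Lgals3bp, chr10:104127799-104128098, minus strand: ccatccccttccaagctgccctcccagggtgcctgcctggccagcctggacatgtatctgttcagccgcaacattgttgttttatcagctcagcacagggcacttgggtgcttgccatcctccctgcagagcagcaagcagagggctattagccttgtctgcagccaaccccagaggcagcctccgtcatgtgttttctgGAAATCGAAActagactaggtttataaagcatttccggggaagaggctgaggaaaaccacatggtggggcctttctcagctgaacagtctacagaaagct
The match begins 59 bases before the start in Ifih1, 69 in Irf7, 92 in Isg20 and 50 in Lgals3bp. RefSeq gives Gbp1 2 annotated starts, and the window shown has 3 matches, 2 of which overlap, while the other window has none. Over the 37 genes, 23 windows or window pairs (62.2%) held a match, compared with 3.92% of the 33469 windows of all genes. The gamma-activated site, TTCNNNGAA, was present for 10 of the 37 (27.0%) and in 8.87% of all windows, and in 1 member window it overlapped a response element. The element was found in 18 of 30 members that fell and in 5 of 7 that did not pass, among them Ifi27, Ifi44 and Ifi44l. Such a match is a description of the letters and not evidence of a bound site.

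The transcription factors and their partners all passed, with modest changes. In this group of 6, the median log2 fold change was -0.31. Irf7, the factor that amplifies interferon production, had 399 and 504 CPM in the RK1 libraries, against 864 and 730 CPM in the untreated libraries. The groups did not overlap, and the level was 1.76-fold lower with RK1 (log2 fold change -0.82 ± 0.11 SE, adjusted p = 0.0029). With robust dispersions Irf7 was not called (adjusted p = 0.11). Irf7 (ENSRNOG00000017414, Rnor_6.0 chromosome 1, 214248837 to 214252456, minus strand) is overlapped on the other strand by Phrf1, and reads in the shared stretch cannot be assigned to one of them without strand.

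Irf1, a factor induced strongly by interferon gamma, had 98.0 and 99.4 CPM with RK1 and 132 and 117 CPM untreated (-0.34 ± 0.06, adjusted p = 0.0090). Here the RK1 libraries were nearly equal and the untreated ones stood apart from each other. Irf9, the DNA-binding subunit of the type I complex, had 87.9 and 97.1 CPM with RK1 and 114 and 109 CPM untreated (-0.27 ± 0.06, adjusted p = 0.017). Ifi35, which binds the STAT-interacting protein Nmi, had 101 and 115 CPM with RK1 and 142 and 133 CPM untreated (-0.34 ± 0.07, adjusted p = 0.012). Stat2, the partner of Irf9, fell by 0.28 ± 0.08 (adjusted p = 0.044) and Nmi by 0.25 ± 0.06 (adjusted p = 0.023). Neither Stat2, Nmi nor Irf9 was called without RK1 replicate 1 or without untreated replicate 1 (adjusted p = 0.056 to 0.15), and Nmi was not called without untreated replicate 2 either. DESeq2 called neither Stat2 nor Nmi (adjusted p = 0.17 and 0.093), and Stat2 was also not called with robust dispersions (adjusted p = 0.087).

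All 5 sensors passed, Zbp1 with a limit given below, and the 4 others changed by nearly the same factor. Ifih1 (ENSRNOG00000006227), which encodes the double-stranded RNA sensor MDA5, had 198 and 200 CPM with RK1, against 295 and 253 CPM untreated. Ddx58, encoding the RNA sensor RIG-I, had 135 and 158 CPM with RK1, against 217 and 188 CPM untreated. Both were 1.38-fold lower (adjusted p = 0.0042 and 0.011), with no overlap between groups. Dhx58, encoding the related helicase LGP2, had 142 and 163 CPM with RK1 and 215 and 188 CPM untreated (-0.40 ± 0.08, adjusted p = 0.014). Eif2ak2, the RNA-activated kinase PKR that halts translation, had 358 and 398 CPM with RK1 and 547 and 476 CPM untreated (-0.44 ± 0.08, adjusted p = 0.0073). In each of these 4 genes RK1 replicate 2 and untreated replicate 2 were the closest pair across the groups.

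Zbp1, a sensor of Z-form nucleic acid linked to necroptosis, was the least abundant of the 48. It had 3 and 7 counts in the RK1 libraries and 46 and 34 counts in the untreated libraries. The ratio of the summed levels was 0.133, with an exact 95% interval of 0.0614 to 0.257 that covers counting error only. The gene passed (adjusted p = 0.0027), but it met the count filter only through its untreated libraries, where it is high. Its call is therefore not used as support for a fall of the sensors. With robust dispersions 4 of the 5 sensors were called, Zbp1 among them with that limit. Ddx58 was not (adjusted p = 0.072), its log2 fold change of -0.47 being the same.

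The antiviral effectors, which act on viral RNA, entry or release, held some of the largest falls. All 15 passed, with a median log2 fold change of -0.81, and 7 passed with robust dispersions. Isg20, an exonuclease that degrades RNA, had 23.1 and 26.3 CPM with RK1, against 63.6 and 53.9 CPM untreated. That is 2.38-fold lower (-1.25 ± 0.10, adjusted p = 2.2e-04), and the libraries of each group lay much closer to each other than to those of the other group. Mx1, a dynamin-like GTPase that traps viral nucleoproteins, had 143 and 227 CPM with RK1, against 794 and 623 CPM untreated (-1.94 ± 0.20, adjusted p = 8.4e-04). The change in Mx1 exceeded the distance between libraries of a group, but those distances were themselves among the wider ones, and it was not called with robust dispersions (adjusted p = 0.092).

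Oasl, of the oligoadenylate synthetase family, had 194 and 215 CPM with RK1 and 434 and 368 CPM untreated (-0.97 ± 0.08, adjusted p = 3.9e-04). Bst2, the tetherin that holds budding virions at the membrane, had 379 and 431 CPM with RK1 and 711 and 659 CPM untreated (-0.76 ± 0.07, adjusted p = 4.4e-04). Both were called under every alternative tried. Oas2, of the same family as Oasl, had 83 and 153 counts in the RK1 libraries, or 4.62 and 8.39 CPM. Untreated, it had 285 and 235 counts, or 14.0 and 12.9 CPM (-1.05 ± 0.24, adjusted p = 0.019). With robust dispersions it was not called (adjusted p = 0.093). After a prior count of 2 was added, Oas2 had the largest ratio between libraries of a group, with RK1 replicate 2 at 1.80 times RK1 replicate 1. Zbp1 was next at 1.79, and without the prior count its 3 and 7 counts in the RK1 libraries give the larger ratio.

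Ifit3, a protein that binds foreign RNA, and Rsad2, which encodes viperin, also differed widely between the RK1 libraries. Ifit3 had 75.4 and 119 CPM with RK1 and 242 and 192 CPM untreated (adjusted p = 0.0060), and Rsad2 had 312 and 483 CPM with RK1 and 881 and 720 CPM untreated (adjusted p = 0.0087). Cmpk2, the neighbour of Rsad2 and a nucleotide kinase, had 105 and 129 CPM with RK1 and 259 and 194 CPM untreated (-0.96 ± 0.14, adjusted p = 0.0035). These 3 were not called with robust dispersions (adjusted p = 0.14 to 0.20). At the other end of the group stood Adar, the RNA-editing enzyme, with 200 and 209 CPM with RK1 and 241 and 224 CPM untreated (-0.19 ± 0.05, adjusted p = 0.039). Adar was not called without RK1 replicate 1 or without untreated replicate 1 (adjusted p = 0.15 and 0.17). The other effectors, Ifit2, Samhd1, Mx2, Oas1a, Ifitm3 and Sp100, fell by 0.81, 0.80, 0.68, 0.65, 0.45 and 0.32 on the log2 scale. Of these, Ifit2, Mx2 and Oas1a were not called with robust dispersions (adjusted p = 0.12 to 0.16), and Sp100 was not called by DESeq2 (adjusted p = 0.051) or without untreated replicate 1.

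**Figure D2:**
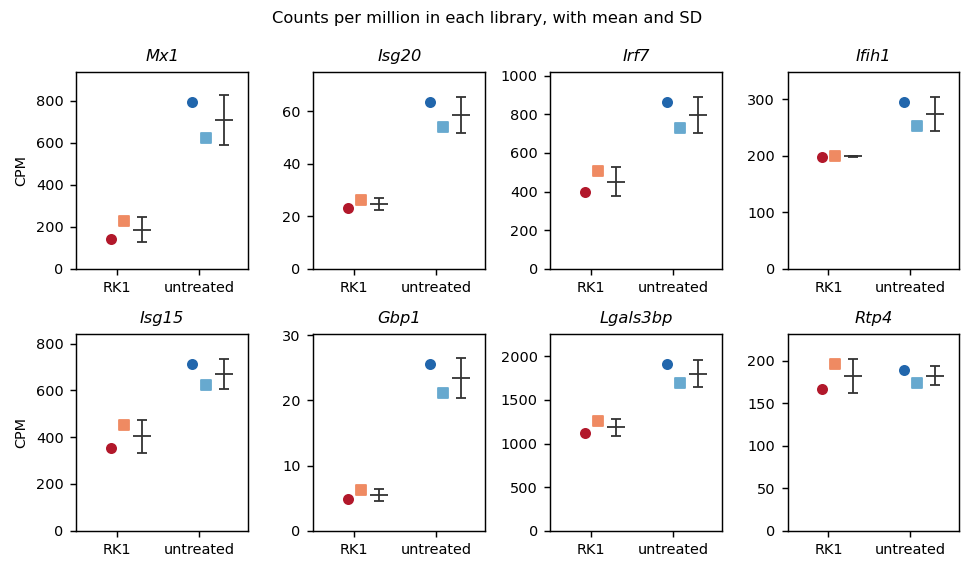
Normalised level (y axis, CPM) of 8 genes in each library (points, circles for replicate 1 and squares for replicate 2), with RK1 left of untreated and the mean ± SD of the 2 libraries beside the points. Mx1, Isg20 and Gbp1 are widely separated, Irf7, Ifih1, Isg15 and Lgals3bp are separated by less, and the Rtp4 libraries overlap.

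The interferon-inducible GTPases, which gather on the compartments of intracellular pathogens, all fell (5 of 5, median -0.91). Gbp1 (ENSRNOG00000023943, Rnor_6.0 chromosome 2, 248398917 to 248409570, plus strand) had 4.90 and 6.20 CPM with RK1, against 25.6 and 21.2 CPM untreated. It was 4.21-fold lower (-2.08 ± 0.15, adjusted p = 1.6e-04), was called under every alternative tried, and was the only one of the 5 called with robust dispersions. Gbp2 had 566 and 686 CPM with RK1 and 1274 and 1081 CPM untreated (-0.91 ± 0.10, adjusted p = 0.0011). Gbp5, which also promotes inflammasome assembly, had 148 and 191 CPM with RK1 and 365 and 322 CPM untreated (-1.02 ± 0.11, adjusted p = 0.0011). Ifi47 had 52.1 and 63.6 CPM with RK1 and 113 and 88.5 CPM untreated (-0.80 ± 0.13, adjusted p = 0.0051), and Igtp fell by 0.56 ± 0.10. With robust dispersions Gbp2, Gbp5, Ifi47 and Igtp had adjusted p-values from 0.053 to 0.14. The guanylate-binding proteins, like the Mx, Oas, Ifit and Ifitm genes, are families of similar sequence, so their counts could have been divided or dropped between copies.

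Genes of protein tagging by ISG15, ubiquitin or ADP-ribose were mixed, with 7 of 10 falling and a median of -0.36. Isg15, the ubiquitin-like modifier, had 355 and 452 CPM with RK1, against 713 and 623 CPM untreated (-0.73 ± 0.11, adjusted p = 0.0042). Herc6, its ligase in mice, had 144 and 184 CPM with RK1 and 285 and 241 CPM untreated (-0.68 ± 0.12, adjusted p = 0.0068). Neither was called with robust dispersions (adjusted p = 0.12 and 0.15). Usp18, the protease that removes ISG15 and restrains receptor signalling, fell by 0.43 ± 0.10 (adjusted p = 0.020), and was not called by DESeq2 or with robust dispersions.

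The ADP-ribosyltransferases, which attach ADP-ribose to proteins or nucleic acids, included both called and uncalled genes. Parp10 had 134 and 148 CPM with RK1 and 196 and 181 CPM untreated (-0.42 ± 0.06, adjusted p = 0.0044), and Parp12 had 87.4 and 98.0 CPM with RK1 and 125 and 114 CPM untreated (-0.37 ± 0.07, adjusted p = 0.010). Both were called under every alternative tried. Parp14 had 559 and 643 CPM with RK1 and 655 and 558 CPM untreated, so the groups overlapped (-0.01 ± 0.09, adjusted p = 0.94). Parp9 had 286 and 312 CPM with RK1 and 373 and 324 CPM untreated (adjusted p = 0.074), while Dtx3l, the ubiquitin ligase that pairs with Parp9 and is its neighbour on chromosome 11, fell by 0.34 ± 0.08 (adjusted p = 0.023). Whether Dtx3l and Parp9 differ from each other was not tested. Trim25, the ligase that activates RIG-I, fell by 0.31 ± 0.09 (adjusted p = 0.040), and Trim21, an antibody-binding ligase, had 85.0 and 99.0 CPM with RK1 and 127 and 104 CPM untreated (adjusted p = 0.062). Trim25 and Dtx3l were not called without RK1 replicate 1 or without untreated replicate 1 (adjusted p = 0.065 to 0.12), and Trim25 was not called with robust dispersions either (adjusted p = 0.12).

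Of the 7 other induced genes only Lgals3bp and Xaf1 passed. Lgals3bp, a secreted galectin-binding glycoprotein, had 1120 and 1258 CPM with RK1, against 1913 and 1691 CPM untreated (-0.60 ± 0.07, adjusted p = 0.0015). Xaf1, a pro-apoptotic partner of the inhibitor XIAP, had 55.3 and 65.1 CPM with RK1 and 110 and 89.6 CPM untreated (-0.73 ± 0.11, adjusted p = 0.0037), and was not called with robust dispersions (adjusted p = 0.054). Helz2, a helicase that coactivates nuclear receptors, had 156 and 178 CPM with RK1 and 230 and 185 CPM untreated, without overlap but also without passing (adjusted p = 0.073).

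In the remaining 4 the groups overlapped. Ifi44l had 598 and 796 counts with RK1 and 1015 and 736 counts untreated, and Ifi44 had 226 and 290 CPM with RK1 and 308 and 270 CPM untreated (adjusted p = 0.27 and 0.35). Ifi27, a small mitochondrial membrane protein, had 549 and 603 CPM with RK1 and 609 and 594 CPM untreated (adjusted p = 0.44). Rtp4, a chaperone of membrane receptors, had 167 and 196 CPM with RK1 and 189 and 174 CPM untreated (0.00 ± 0.08, adjusted p = 1.0). A p that misses the threshold does not show that these genes stayed the same.

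Per length of exon the 48 genes spanned a wide range of levels. The highest mean levels with RK1 were 722 RPKM (CPM per kilobase of exon) for Ifi27 and 663 RPKM for Ifitm3, and the highest untreated were 908 RPKM for Ifitm3 and 870 RPKM for Bst2. The 3 lowest were Gbp1, Oas2 and Zbp1 in both groups, at 3.12, 2.82 and 0.106 RPKM with RK1 and 13.1, 5.85 and 0.799 RPKM untreated. Mx1 ranked 27th of the 48 by RPKM with RK1 and 11th untreated.

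Replicates of the same group also stood apart in these genes, in a regular way. In all 48, RK1 replicate 2 was higher than RK1 replicate 1, and untreated replicate 1 was higher than untreated replicate 2. Each of these orders held in 49% and 49.8% of all tested genes, and both together in 21.3%. For 43 members the full order from low to high was RK1 replicate 1, RK1 replicate 2, untreated replicate 2, untreated replicate 1, which 7.4% of tested genes shared. The orders were also found in 48 of 48 members with RLE scaling and with library totals alone.

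The median difference between libraries was 0.21 on the log2 scale within the RK1 pair and 0.21 within the untreated pair, whereas the median absolute difference over all tested genes was 0.08 in both pairs. After centring each gene on its mean, the member medians were -0.35 and -0.15 in RK1 replicates 1 and 2 and 0.34 and 0.14 in untreated replicates 1 and 2. Within the RK1 pair the widest ratios were those of Oas2, Zbp1, Mx1, Ifit3 and Rsad2, from 1.55 to 1.80 with the prior count of 2. Within the untreated pair the widest was that of Cmpk2, at 1.33. Across the 48 genes the log2 difference within one pair correlated with that within the other at Pearson's r = 0.32, and at -0.06 across all tested genes. No library is shared between these differences, but genes are not independent replicates.

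**Figure D3:**
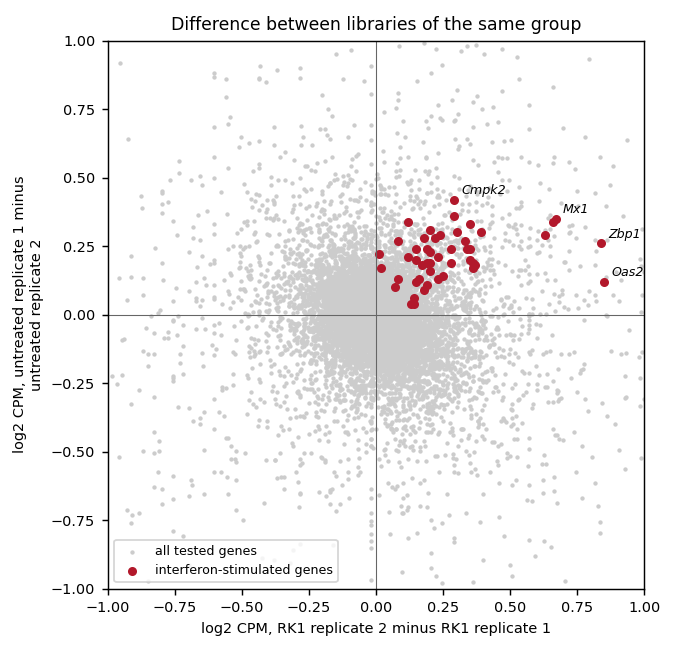
Difference in log2 CPM between the libraries of each group, RK1 on the x axis and untreated on the y axis, for the interferon-stimulated genes (red) and all tested genes (grey, 254 of them outside the plotted range). Every red point lies above and to the right of 0, while the grey points spread around 0.

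Among the 40 genes that fell, the 20 that were called with robust dispersions had a median difference of 0.16 within the RK1 pair and 0.18 within the untreated pair. The 20 that were not called had medians of 0.32 and 0.26. Dispersion is estimated from these same differences, so this contrast is largely built into the method and is not a separate result. The calls that did not survive included Mx1, Irf7, Isg15, Rsad2 and Ifit3, with adjusted p-values from 0.053 to 0.20 over the 20. In contrast, 15 of the 40 were called under every alternative in which they were tested. They were Ifih1, Dhx58, Eif2ak2, Zbp1, Irf1, Ifi35, Isg20, Oasl, Bst2, Samhd1, Ifitm3, Gbp1, Parp10, Parp12 and Lgals3bp. For Zbp1, tested only through its untreated libraries, these calls carry the limit given above.

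**Figure D4:**
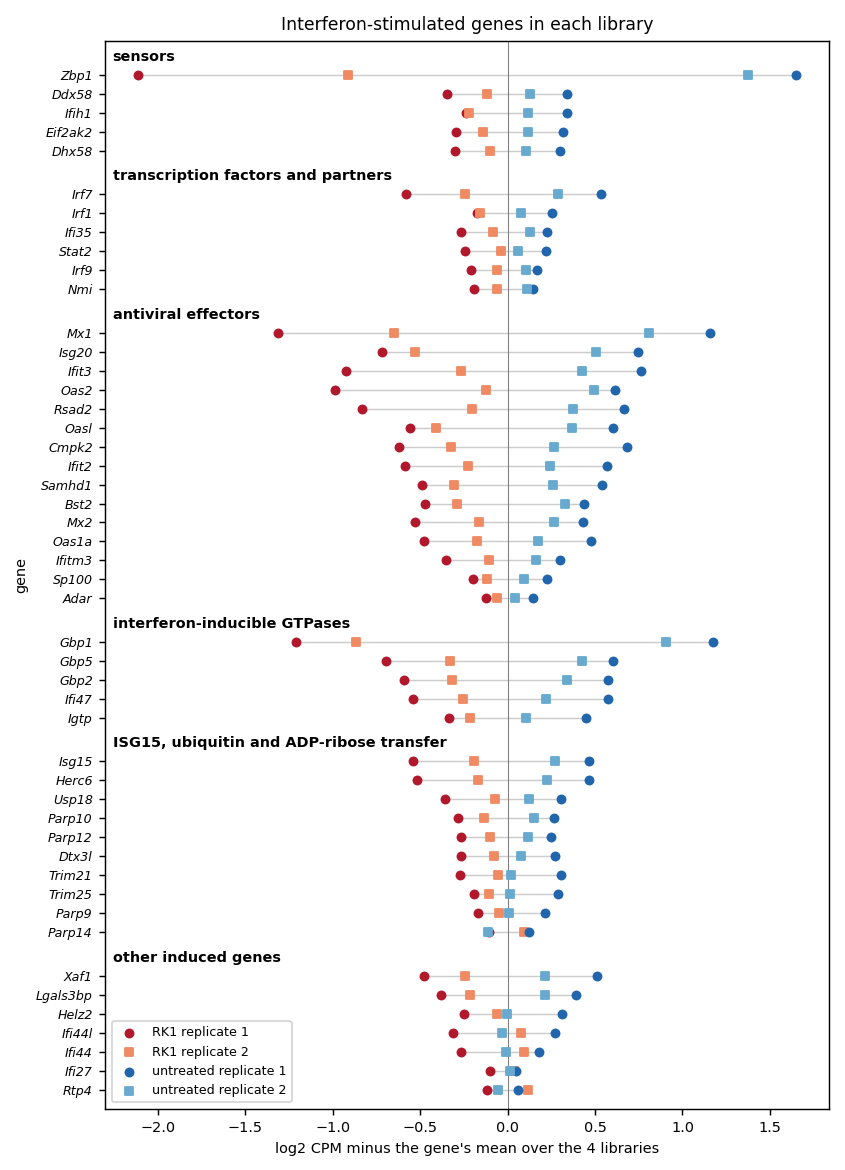
Level of each gene in each of the 4 libraries (x axis, log2 CPM minus the mean of the gene over the libraries, with no count added), by role group. RK1 replicate 1 is the lowest library and untreated replicate 1 the highest in nearly all genes, with Parp14, Ifi44, Ifi44l, Ifi27 and Rtp4 showing overlapping groups.

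Of 42 other genes of the interferon pathway, 30 were tested, of which 2 fell and 4 rose, with a median log2 fold change of 0.06. These counts lie near the shares of all tested genes, 10.5% lower and 11.5% higher, and only the single genes are described. The interferon genes themselves had at most 12 counts in any library, and none was tested. Ifnb1, encoding interferon beta, had 6 and 3 counts with RK1 and 12 and 10 counts untreated, and the ratio of the sums was 0.435 with an exact 95% interval for counting error of 0.176 to 0.983. Ifna2, Ifna4, Ifna5, Ifng, Ifnk, Ifnl1 and Ifnl3 were at 0 counts throughout, and 0 counts allow a level of up to 0.167 CPM where depth was lowest. Ifna1 had 1 count in RK1 replicate 2, and Ifne had 5 and 3 counts with RK1 and 4 and 4 counts untreated.

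No receptor gene was called lower. Ifnar1, a subunit of the type I receptor, had 124 and 114 CPM with RK1 and 106 and 98.2 CPM untreated (0.22 ± 0.06, adjusted p = 0.037), but was not called by DESeq2, without RK1 replicate 1 or without untreated replicate 2 (adjusted p = 0.070 to 0.17). Il10rb, shared by the receptors of interferon lambda and interleukin 10, had 45.7 and 47.4 CPM with RK1 and 37.9 and 35.2 CPM untreated (0.35 ± 0.06, adjusted p = 0.0066), and was not called without untreated replicate 2 (adjusted p = 0.058). The 4 other receptor genes, Ifnar2, Ifngr1, Ifngr2 and Ifnlr1, had log2 fold changes from -0.04 to 0.15 and did not pass.

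Of the kinases and factors, Irf8, a factor of myeloid cells, fell, at 30 and 37 counts with RK1 and 69 and 62 counts untreated (-0.88 ± 0.21, adjusted p = 0.025), but was not called by DESeq2 or without RK1 replicate 1, untreated replicate 1 or untreated replicate 2 (adjusted p = 0.083 to 0.17). The receptor kinase Tyk2 rose by 0.19 ± 0.05 (adjusted p = 0.035), a call lost by DESeq2 and when any 1 library was left out (adjusted p = 0.067 to 0.30). Jak1, Jak2, Stat3, Irf2, Irf3 and Irf5 did not pass. Upstream, the cytosolic DNA sensor Cgas fell, with 28.7 and 28.8 CPM with RK1 and 35.8 and 39.6 CPM untreated (-0.39 ± 0.07, adjusted p = 0.0078). Its adaptor Sting1 rose, with 69.1 and 66.4 CPM with RK1 and 50.9 and 42.8 CPM untreated (0.53 ± 0.08, adjusted p = 0.0040). Mavs, Tbk1, Ikbke, Tlr3, Myd88, Traf3 and Traf6 did not pass, nor did the 7 inhibitors tested, Socs1 and Socs3 among them (adjusted p = 0.053 to 0.76).

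**Figure D5:**
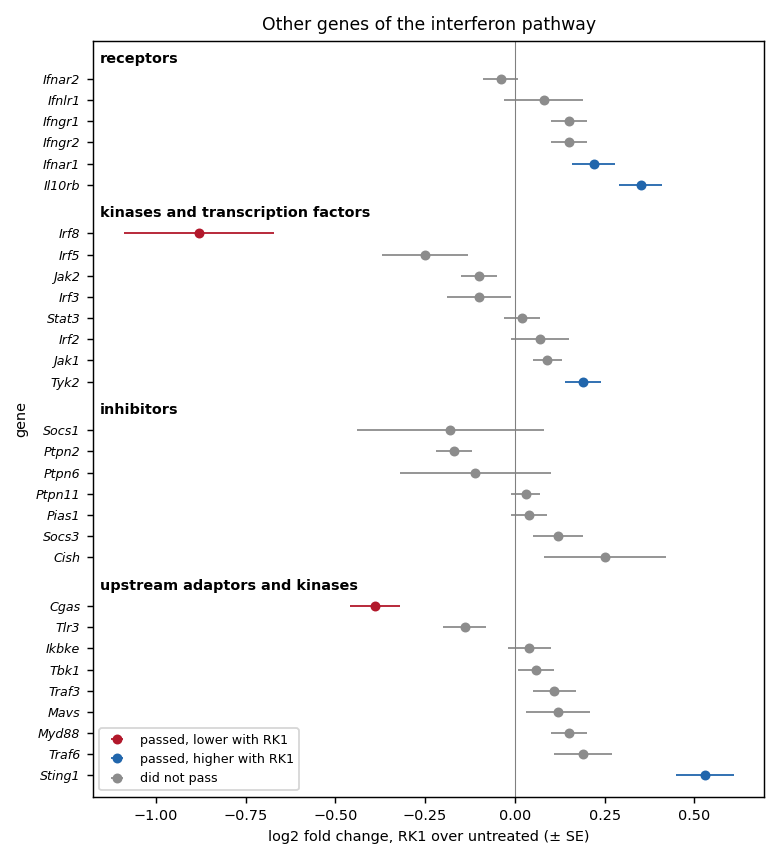
Log2 fold change (x axis, RK1 over untreated, bars ± SE, 2 libraries per group) of the 30 tested pathway genes outside the 48. Irf8 and Cgas lie to the left and passed, Ifnar1, Il10rb, Tyk2 and Sting1 lie to the right and passed, and the remaining 24 did not pass.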

How the data were processed

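Raw counts for each Ensembl gene were deposited by the authors in 1 table, with exon lengths and, per the file headers, Rnor_6.0 positions. HISAT2 and HTSeq are named in the submitters' processing notes. Versions, strand setting and treatment of multiply mapped reads: not given in the sources used here. Libraries were made from total RNA with the VAHTS Universal V6 kit, per the labels' protocols.

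Genes were filtered with filterByExpr (minimum count 10, minimum total 15), scaled by TMM (factors 0.994 to 1.01) and tested with edgeR 4.0.16 in R 4.3.3 by a two-sided quasi-likelihood F-test, with no covariate beside group, 2 residual degrees of freedom and Benjamini-Hochberg adjustment over 12316 genes. The SE is the log2 fold change divided by the square root of F. CPM and RPKM use the scaled library totals, and differences within a pair use log2 CPM with a prior count of 2. These steps were tested on simulated counts, drawn independently for each gene with a common dispersion. The simulation held no difference between libraries shared across genes, so it does not cover that of the interferon-stimulated genes.

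The members, role groups and lists were chosen with earlier results of these data known. Values per library are given for up to 4 genes of each role group with at least 5 CPM and the smallest adjusted p, for the gene of each group with the largest ratio between libraries, and for others chosen after their values were seen. Counts of the 2 libraries of a group varied beyond sampling noise, with chi-square over degrees of freedom at 4.6 for RK1 and 4.49 for untreated. Alternatives were DESeq2 1.42.0, limma-voom (limma 3.58.1), robust dispersions, RLE scaling, library totals alone, no filter, a stricter filter, a replicate block and each library left out, where the variation of the single remaining library is taken from the other group. Promoter windows came from RefSeq, and 11 members had none in the table used. Another pathway gene is not reported here.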

Additional observations from a re-analysis of the deposited data

How the results depend on the processing

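The 40 interferon-stimulated genes that fell were called with limma-voom, RLE scaling, library totals alone, no filter and the replicate block too, and 39 of the 47 tested under the stricter filter. Robust dispersions left 20. With each library left out in turn, 33 to 45 fell, and 0 rose under any alternative. DESeq2 called 38 lower, losing Sp100, Nmi, Stat2 and Usp18 and adding Trim21 and Parp9. The replicate block changed no call of a member (40 lower), and same-numbered libraries deviated together only weakly (correlation 0.059 over 12316 genes), so the numbers are not read as pairs. Over all genes, 1289 were lower and 1422 higher, but 845 and 845 by DESeq2; with each library left out in turn, 902 to 1026 were lower and 853 to 1160 higher. Of pathway genes, 4 rose and 2 fell, but 2 and 1 by DESeq2, and 1 to 3 rose and 1 to 3 fell with each library left out. The causes were not tested. No member changed sign while called. With 2 libraries per group, small changes such as those of Trim21, Parp9 and Helz2 may be missed, and counts limit Zbp1 and Ifnb1.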
